A study of Mus musculus with 9 samples.

Results

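C5aR+ lysozyme-expressing dendritic cells (LysoDC) of mouse Peyer's patches were set against a calculated intermediate state, the average of 2 other sorted populations, LysoMac and C5aR- LysoDC. For each transcript cluster, which groups the probes of a gene, the mean of the 3 C5aR+ arrays was compared with the average of the LysoMac mean and the C5aR- mean, here called the midpoint. All 9 of the 9 arrays entered, 3 for each population, and all 33793 transcript clusters were tested. The contrast asks where C5aR+ cells leave the middle of the other populations, so a gene can differ from the midpoint either by lying beyond both or by standing at the level of one of them.

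The cells came from digested mouse Peyer's patches, were enriched for CD11c on beads and were sorted as LysoMac, C5aR+ LysoDC or C5aR- LysoDC with antibodies to C5aR, CD4, MHCII, BST2, SIRP and CD11c. No treatment was given to any of the 3 populations, and strain, age, sex, gates and the number of animals behind an array were not stated (not given in the sources used here). Nothing states that arrays of the same population are separate animals, so the p-values reflect only how these samples vary, and that spread may be technical. For C5aR- arrays 2 and 3 the source field gives a receptor other than the C5aR of the title, and grouping went by title.

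LysoDC and LysoMac are lysozyme-rich phagocytes of monocyte origin that lie beneath the specialised epithelium of Peyer's patches, where M cells carry particles in from the gut lumen. LysoDC are known as the better stimulators of T cells and display more MHC class II, while LysoMac are known as longer-lived cells with strong phagocytic activity. C5aR, encoded by C5ar1, is the receptor for the complement fragment C5a, which attracts and activates myeloid cells.

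The deposited values are on the log2 scale, and a difference of 1 is a change by a factor of 2. Array medians lay between 3.39 and 3.65. LysoMac array 3 correlated less with its own group (mean r = 0.954) than with the other arrays (0.968), and LysoMac array 2 had the lowest correlation with the other populations (0.933). The mean variance within a population was 0.179 in LysoMac, against 0.0958 for the C5aR+ and 0.0854 for the C5aR- arrays.

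Very few transcript clusters passed as different from the midpoint. C5aR+ LysoDC were higher than the midpoint at 4 clusters, which is 0.0118% of those tested, and lower at 0 clusters (0%), by limma with Benjamini-Hochberg adjustment over all clusters and a threshold of 0.05. The 4 clusters were the chemokine gene Ccl8, the MHC class II chain genes H2-Aa and H2-Ab1, and a cluster that carries 2 gene symbols and is not named here. At an unadjusted p under 0.05, 562 clusters (1.66%) were higher and 458 (1.36%) were lower. Together these shares are below the 0.05 that such a threshold passes where no cluster differs, so they do not count departures. The median difference over all clusters was -0.01 and the median SE was 0.18. Differences over 1 also failed, such as the MHC class II gene H2-Eb1 at 1.23 ± 0.16 (limma adjusted p = 0.125). C3ar1 failed at 3.23 ± 0.58 (limma adjusted p = 0.563). A cluster that did not pass may therefore still have left the midpoint, also by more than 1. The number of calls rested on single arrays: 0 clusters passed without LysoMac array 1, LysoMac array 3, C5aR+ array 2 or any 1 of the C5aR- arrays, 1 passed without C5aR+ array 3, 3 without C5aR+ array 1 and 6 without LysoMac array 2.

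**Figure D1:**
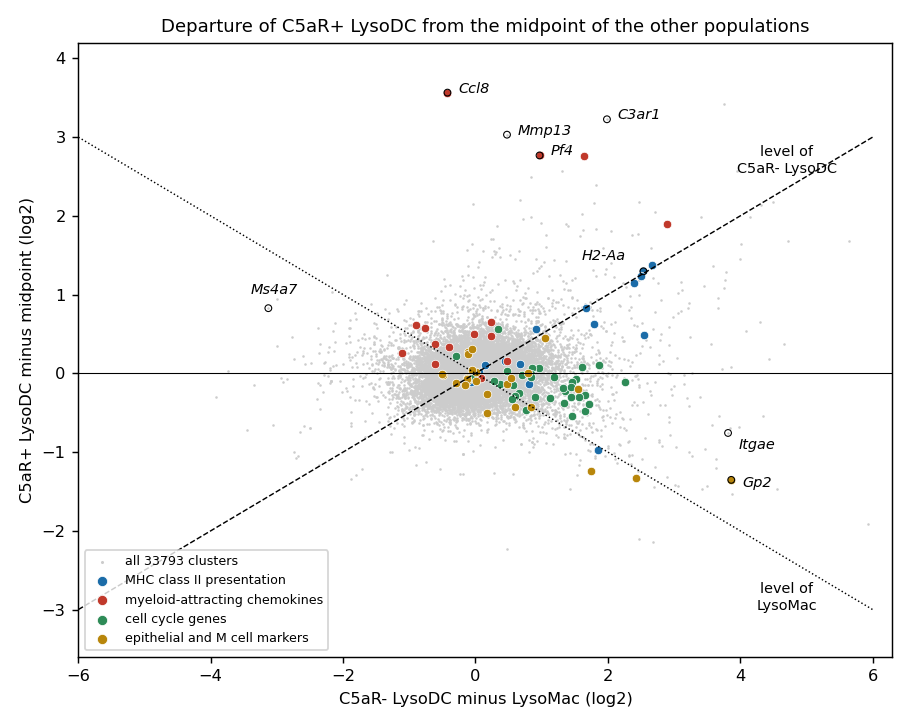
Each point is a transcript cluster, with the log2 difference between C5aR- LysoDC and LysoMac on the horizontal axis and the log2 difference of C5aR+ LysoDC from the midpoint on the vertical axis. The dashed line marks clusters at the C5aR- level and the dotted line those at the LysoMac level. Ccl8 stands at 3.57 with little difference between the other populations. Of the 15 MHC class II genes, 12 lie above the midpoint. H2-Aa and H2-Ab1 lie near the C5aR- line, while H2-Oa lies near the LysoMac line.

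Ccl8, a chemokine that attracts monocytes and other leukocytes, was the gene with the largest departure. Its values were 5.62, 5.64 and 7.02 on the C5aR+ arrays, against 3.00, 2.78 and 2.43 on the LysoMac arrays and 2.52, 2.42 and 2.00 on the C5aR- arrays. Every C5aR+ array lay above all other arrays, and C5aR+ array 3 was the highest. The difference from the midpoint was 3.57 ± 0.31 (SE, n = 3 arrays a population; limma adjusted p = 0.0194). In both other populations the mean was under each array's median, where background cannot be separated from expression, and the difference is then a lower bound. Ccl8 passed in 15 of 22 alternative settings, with a difference of 3.10 to 3.80 and an adjusted p of 0.00425 to 0.161. It was lost when replicate number was added as a block (adjusted p = 0.113) and without LysoMac array 1 (0.0795), LysoMac array 3 (0.0514), C5aR+ array 2 (0.161), or C5aR- arrays 1 (0.116), 2 (0.101) and 3 (0.0669). Without C5aR+ array 3 it still passed, at 3.10 with an adjusted p of 0.00896.

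The MHC class II genes that passed did so from the other position, at the level of C5aR- LysoDC. MHC class II molecules present peptides from engulfed material to CD4 T cells, and H2-Aa and H2-Ab1 encode the alpha and beta chains of the I-A molecule. An antibody to MHCII was among those used in the sort, so the level of these genes is not independent of how the populations were made. H2-Aa was 7.44, 7.59 and 7.70 on the C5aR+ arrays, 7.54, 7.45 and 7.65 on the C5aR- arrays and 5.06, 5.13 and 4.84 on the LysoMac arrays. The C5aR+ and C5aR- values overlapped and every LysoMac value lay below both. H2-Aa was 1.30 ± 0.12 (SE) above the midpoint (limma adjusted p = 0.0194), at 101% of the way from LysoMac to C5aR- LysoDC. H2-Ab1 was 11.99, 12.06 and 11.93 on the C5aR+ arrays, 12.03, 11.93 and 12.19 on the C5aR- arrays and 9.71, 9.59 and 9.65 on the LysoMac arrays. It was 1.14 ± 0.11 above the midpoint (limma adjusted p = 0.0194), at 97.8% of the way. The unnamed cluster with 2 symbols had the same form, 1.17 ± 0.11 above the midpoint.

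These MHC class II calls depended on the scale on which the middle is taken. H2-Aa passed in 9 of 22 alternatives (adjusted p 0.00425 to 0.284) and H2-Ab1 in 10 of 22 (0.00425 to 0.284). With the midpoint taken as the average of linear values, which lies closer to the brighter population, the difference was 0.80 for H2-Aa and 0.70 for H2-Ab1, and both adjusted p-values were 0.284. Adding the replicate number as a block ended both calls (adjusted p = 0.113 for each), and so did leaving out any 1 array other than LysoMac array 2. On that linear scale 1 cluster was higher, Ccl8 at 3.55 (adjusted p = 0.0381), and 1 was lower, Itgae at -1.76 (adjusted p = 0.0485).

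The stretches before the starts of these genes are shown because MHC class II promoters carry shared control elements, the X box and the Y box, which the regulator CIITA and its partners use. Each is the 250 bases upstream of the RefSeq start in GRCm38.p6, written 5' to 3' on the gene's strand: Ccl8 at chr11:82114935-82115184 (plus strand), H2-Aa at chr17:34287824-34288073 (minus), H2-Eb1 at chr17:34305617-34305866 (plus) and H2-DMb1 at chr17:34152941-34153190 (plus). H2-Ab1 is named only. Capitals mark matches, on either strand, to the Y box core CCAAT and to an X box consensus of 11 letters.

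Ccl8: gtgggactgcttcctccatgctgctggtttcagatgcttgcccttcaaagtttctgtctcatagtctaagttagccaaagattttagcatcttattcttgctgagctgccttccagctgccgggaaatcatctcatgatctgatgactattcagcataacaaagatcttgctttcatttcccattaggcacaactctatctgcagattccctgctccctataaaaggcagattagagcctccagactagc
H2-Aa: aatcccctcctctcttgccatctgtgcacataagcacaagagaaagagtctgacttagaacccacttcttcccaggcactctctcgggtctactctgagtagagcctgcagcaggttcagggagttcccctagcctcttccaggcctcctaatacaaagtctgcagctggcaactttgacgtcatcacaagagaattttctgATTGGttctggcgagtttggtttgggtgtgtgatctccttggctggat
H2-Eb1: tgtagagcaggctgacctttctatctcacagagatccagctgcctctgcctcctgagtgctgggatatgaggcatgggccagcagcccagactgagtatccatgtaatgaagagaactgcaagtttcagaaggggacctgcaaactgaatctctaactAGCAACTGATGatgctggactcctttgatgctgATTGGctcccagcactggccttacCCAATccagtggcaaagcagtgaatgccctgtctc
H2-DMb1: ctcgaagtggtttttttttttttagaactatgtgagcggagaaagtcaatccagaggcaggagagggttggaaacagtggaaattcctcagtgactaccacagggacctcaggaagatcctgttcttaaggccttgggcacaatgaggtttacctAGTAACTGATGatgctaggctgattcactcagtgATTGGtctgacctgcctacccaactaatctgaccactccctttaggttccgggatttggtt

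H2-Eb1 held an X box match starting 92 bases before the start and Y box matches at 59 and 35. H2-DMb1 held an X box match at 95 bases and a Y box match at 61. The first X box and Y box letters lay 33 bases apart in H2-Eb1 and 34 in H2-DMb1. H2-Aa held 1 Y box match, 48 bases before its start, and 0 X box matches, and Ccl8 held 0 of either. Of 32851 promoters of this length, 33.8% held the Y box letters and 0.816% the X box letters. The first 9 letters of the X box, AGNNACNGA, searched after these matches had been seen, were in 14.7% of promoters and occurred 2 times in H2-DMb1. These matches describe letters in the window and not sites in use. A search for exact letters can miss an element with other letters, so 0 matches do not show that H2-Aa lacks an X box.

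Over the 15 measured genes of MHC class II presentation, 2 rose and 0 fell, against 4 and 0 of all 33793 clusters (0.0118% and 0%). The median difference was 0.49 against -0.01 over all clusters. That median was 0.24 without C5aR+ array 3, 0.30 without C5aR- array 1, 0.27 with array weights and 0.13 with the linear midpoint. The classical chains that did not pass had values of the same form. H2-Eb1, the beta chain of I-E, was 1.23 ± 0.16 above the midpoint (limma adjusted p = 0.125), at 99.2% of the way to C5aR- LysoDC. H2-Ea was 1.38 ± 0.25 above it (adjusted p = 0.563). H2-DMb1, a chain of the peptide-loading molecule H2-DM, was 0.82 ± 0.15 above it at 99.5% of the way, with its LysoMac mean under every array median, and H2-DMb2 0.62 ± 0.17 above it at 84.7%. Ciita, the master regulator of the class II genes, was 0.49 ± 0.32 above it at 69.2%. H2-Oa, a chain of H2-O, which restrains H2-DM, lay on the other side. It was 5.98, 6.18 and 5.34 on the C5aR+ arrays, 6.22, 5.41 and 6.03 on the LysoMac arrays and 8.08, 7.82 and 7.31 on the C5aR- arrays. Its C5aR+ and LysoMac values overlapped and lay below every C5aR- value, at -0.98 ± 0.26 from the midpoint (adjusted p = 1).

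**Figure D2:**
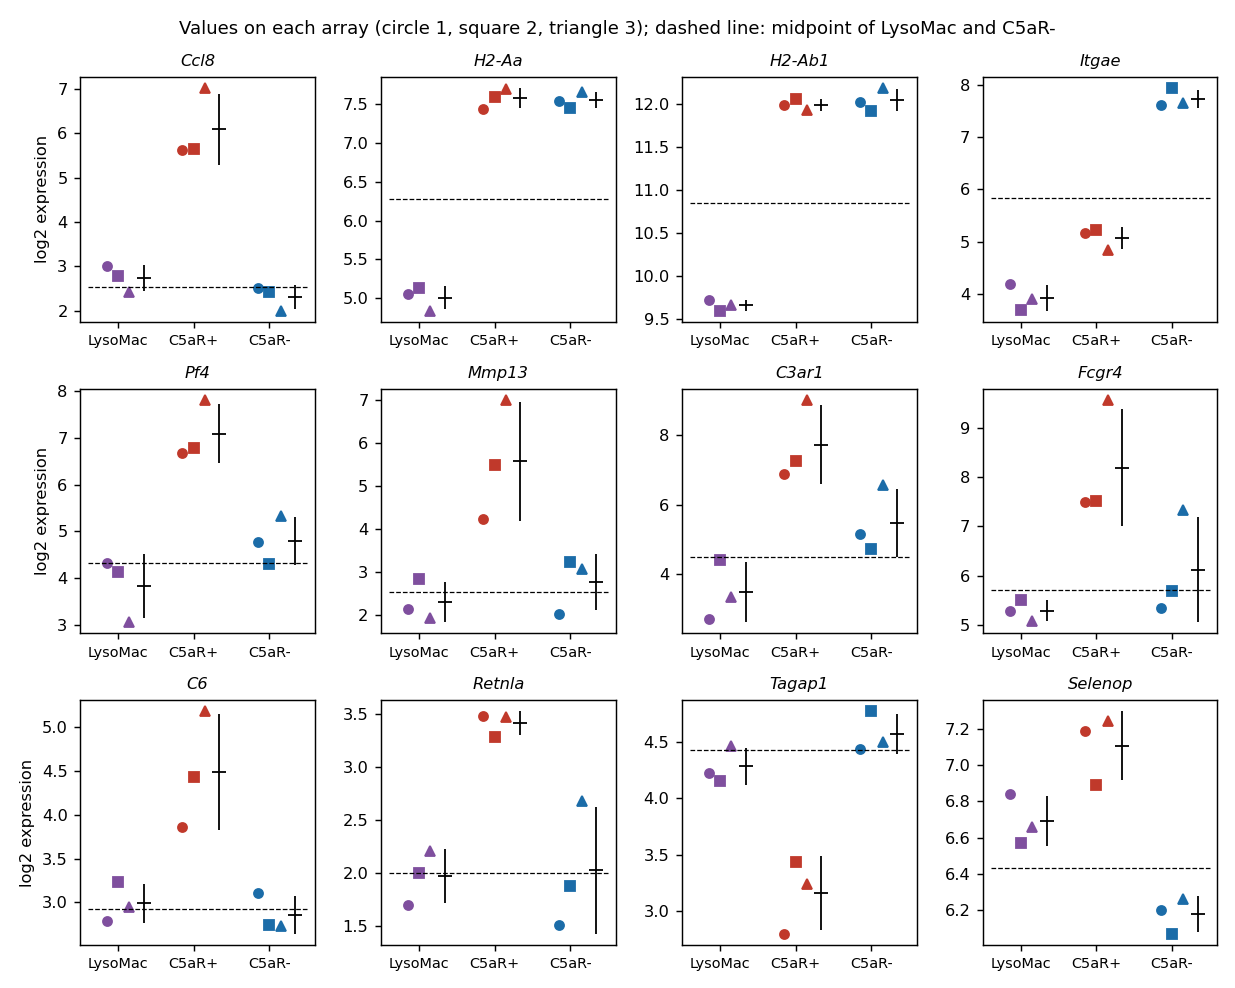
Log2 expression of 12 genes on each of the 9 arrays by population, with the group mean and SD in black and the midpoint as a dashed line. Ccl8 is above the other populations on all 3 C5aR+ arrays, H2-Aa and H2-Ab1 overlap with C5aR- LysoDC, and Tagap1 is below the other populations.

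Myeloid-attracting chemokines, the family of Ccl8, had 16 measured members, of which 1 rose and 0 fell. Of all clusters, 0.0118% rose and 0% fell. Their median difference was 0.49, 15 of 16 differences were above 0 and 11 of 16 C5aR+ means lay above both other means. Over all 33793 clusters, 15970 differences were above 0 and 8438 C5aR+ means lay above both. Pf4, a chemokine stored in platelets and also made by macrophages, was 6.66, 6.78 and 7.81 on the C5aR+ arrays, 4.31, 4.13 and 3.06 on the LysoMac arrays and 4.77, 4.30 and 5.33 on the C5aR- arrays. All C5aR+ values lay above the rest, with a difference of 2.77 ± 0.36 that did not pass (limma adjusted p = 0.125). Ccl24, an eosinophil attractant singled out here after its values were seen, was 7.88, 8.03 and 10.00 on the C5aR+ arrays and 6.28, 5.68 and 8.12 on the C5aR- arrays. Those ranges overlapped, and its difference of 2.76 ± 0.58 did not pass (adjusted p = 0.943). The monocyte attractants Ccl2, Ccl7 and Ccl12 had differences of 0.66, 0.47 and 0.33, none of which passed.

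C5aR+ LysoDC lay beyond both other populations on every array at few clusters. All 3 C5aR+ arrays were above the other 6 at 187 clusters (0.553%) and below them at 222 (0.657%). Apart from Ccl8 none of these passed the test. The genes with the smallest unadjusted p among those above were, beside Pf4, C6, Retnla, Mmp13, C3ar1, Selenop, Rcan1, Pou2af1 and Fcgr4. Among the 3 C5aR+ arrays, array 3 held the highest value in 9 of these 10 genes with Ccl8 included. That share was 37.4% over the 187 clusters and 26.2% over all clusters.

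C3ar1, the receptor for the complement fragment C3a, was 6.88, 7.25 and 9.0 on the C5aR+ arrays, 2.71, 4.41 and 3.35 on the LysoMac arrays and 5.14, 4.72 and 6.57 on the C5aR- arrays. Its difference was 3.23 ± 0.58 (limma adjusted p = 0.563), and 2.58 without C5aR+ array 3. Mmp13, a collagenase, was 4.22, 5.47 and 6.99 on the C5aR+ arrays and between 1.93 and 3.22 on the other 6. Its difference was 3.03 ± 0.54 (adjusted p = 0.563), or 2.32 without C5aR+ array 3, and both other populations lay below every array median. Fcgr4, an activating receptor for IgG, was 7.50, 7.51 and 9.56 on the C5aR+ arrays and 5.33, 5.69 and 7.33 on the C5aR- arrays, with a difference of 2.49 ± 0.54 (adjusted p = 1). The remaining genes were separated by less. C6, a component of the membrane attack complex, was 1.56 ± 0.26 above the midpoint and Retnla, a secreted marker of alternatively activated macrophages, 1.42 ± 0.24. For both genes the LysoMac and C5aR- means lay under every array median, so the C6 difference is a lower bound. The C5aR+ values of Retnla, 3.48, 3.28 and 3.48, were themselves near the array medians. Background cannot be separated from expression there, so no bound follows for Retnla. Selenop, a selenium carrier, was 0.67 ± 0.13 above it, Rcan1, a calcineurin regulator, 1.12 ± 0.22 and Pou2af1, a transcriptional co-activator known from B cells, 0.50 ± 0.10.

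Among the genes below all other arrays, Tagap1 had the smallest p. It was 2.80, 3.43 and 3.24 on the C5aR+ arrays, 4.23, 4.15 and 4.46 on the LysoMac arrays and 4.44, 4.77 and 4.50 on the C5aR- arrays. The C5aR+ mean lay under every array median. The difference was -1.27 ± 0.17 (limma adjusted p = 0.125); it passed in 1 of 22 alternatives, with array weights. Eola1 was -1.27 ± 0.24 from the midpoint, Cd96, a receptor of T and natural killer cells, -1.0 ± 0.23, and Spint2, a serine protease inhibitor, -0.94 ± 0.21. The other genes named by the same rule, Eomes, Stard7, Cldn34b2, Bard1, Cacfd1 and Ppdpf, had differences between -0.57 and -0.46. Eomes and Cldn34b2 lay under every array median in all 3 populations, and Bard1 in LysoMac and C5aR+ LysoDC, so these differences are between values that may be background. No gene in this direction passed.

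The targets of the sort antibodies placed C5aR+ cells on different sides. C5ar1 was 4.92, 4.09 and 5.04 on the C5aR+ arrays, 4.62, 4.19 and 4.99 on the LysoMac arrays and 3.04, 2.72 and 3.27 on the C5aR- arrays. The C5aR+ and LysoMac values overlapped and lay above every C5aR- value, and the difference from the midpoint was 0.88 ± 0.25 (limma adjusted p = 1). The C5aR- mean lay under every array median. Cd4 was 4.96, 4.60 and 4.65 on the C5aR+ arrays and 7.31, 6.20 and 7.88 on the LysoMac arrays, at 89.0% of the way to C5aR- LysoDC. The lysozyme genes were bright in every population, Lyz2 between 10.35 and 11.41 and Lyz1 between 9.25 and 10.45, and differed from the midpoint by 0.07 ± 0.16 and 0.09 ± 0.25. Itgax (CD11c), Sirpa and Bst2 had differences of 0.15, 0.12 and -0.06. Genes known from conventional dendritic cells were mixed in position. Flt3, a growth factor receptor of that lineage, was 4.23, 4.47 and 4.47 on the C5aR+ arrays, 3.85, 3.52 and 3.49 on the LysoMac arrays and 6.54, 8.02 and 6.68 on the C5aR- arrays, at 22.3% of the way. Zbtb46, a transcription factor of that lineage, was 4.01, 3.77 and 4.26 on the C5aR+ arrays, 4.05, 3.87 and 4.41 on the LysoMac arrays and 5.15, 5.45 and 4.86 on the C5aR- arrays. The C5aR+ and LysoMac values of Zbtb46 overlapped. For Flt3 the LysoMac values were near the array medians, where background cannot be separated from expression, so its percentage is uncertain. Both genes were chosen after their values were seen, and others of the same list lay nearer C5aR- LysoDC.

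More clusters passed between the other populations than passed against their midpoint, but the comparisons differ in what they can detect. A gene at the level of either population departs from the midpoint by only part of the gap. H2-Aa was 1.30 from the midpoint across a gap of 2.54. The median SE was 0.18 for the midpoint difference and 0.20 for the gap. The counts therefore do not show that departures were rarer. C5aR- LysoDC were higher than LysoMac at 381 clusters (1.13%) and lower at 137 (0.405%) by the same limma fit. At these 518 clusters the C5aR+ mean lay a median of 42.7% of the way from LysoMac to C5aR- LysoDC, with quartiles of 25.6% and 59.3%. It lay between the other means at 349 of the 381 and 134 of the 137, a position that the choice of clusters with a wide gap itself favours. It was beyond the C5aR- mean at 10 and beyond the LysoMac mean at 25. Counted by side, 199 of 518 (38.4%) were nearer C5aR- LysoDC and 319 nearer LysoMac.

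Measured from the midpoint toward C5aR- LysoDC, the median over these clusters was -0.10, and -0.28, -0.10 and 0.05 on the 3 C5aR+ arrays. The arrays did not share a side, and the value was 0.21 without LysoMac array 3 and -0.33 without C5aR- array 3, so no side was settled. Lsp1, an actin-binding protein of leukocytes, was close to the middle, with 7.78, 7.81 and 7.58 on the C5aR+ arrays against 6.37 to 6.40 in LysoMac and 9.24 to 9.48 in C5aR- LysoDC. Pmp22, a membrane protein, lay at 53.8% of the way, and Ctsd, a lysosomal protease, at 48.1%.

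**Figure D3:**
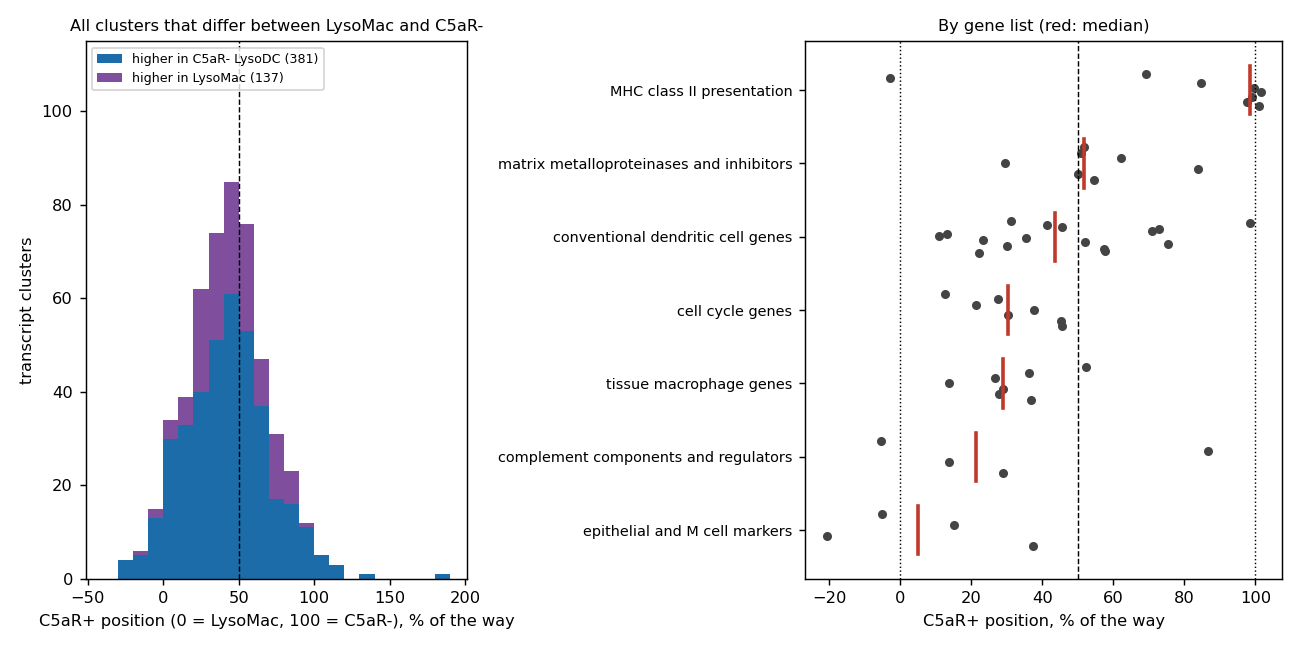
Left, the number of transcript clusters that differ between C5aR- LysoDC and LysoMac by the position of the C5aR+ mean, in percent of the way from LysoMac (0) to C5aR- LysoDC (100); right, the same position for such genes of 7 lists, with the median in red. The median over all 518 clusters is 42.7%. It is 98.5% for the 8 of 15 measured MHC class II genes that differ between those populations. For the 4 of 25 measured epithelial and M cell markers that differ it is 4.94%.

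The position differed in value between gene groups, which share the same 9 arrays and were not tested against each other. The 8 MHC class II genes that differed between the other populations had a median of 98.5% of the way, and 7 of 8 were nearer C5aR- LysoDC. The 16 conventional dendritic cell genes had a median of 43.4%, with 7 nearer C5aR- LysoDC and 9 nearer LysoMac. Within them Itgae, an integrin that binds E-cadherin, was at 30.2%, Ccr7, the receptor that guides dendritic cells to lymphoid tissue, at 52.0% and the lectin gene Mgl2 at 72.8%. The 7 tissue macrophage genes had a median of 28.9% and 6 of 7 were nearer LysoMac. Among these were Mertk, a receptor for dying cells, at 36.7%, Cx3cr1, the fractalkine receptor, at 27.7%, and C1qc, a chain of complement C1q, at 13.7%. Ms4a7, a membrane protein of macrophages, was at 23.5%.

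The 7 cell cycle genes that differed between the other populations all lay nearer LysoMac, at a median of 30.4%. Nusap1, a spindle protein, was 4.77, 4.71 and 4.69 on the C5aR+ arrays, 4.26, 4.44 and 4.91 on the LysoMac arrays and 5.83, 5.92 and 6.23 on the C5aR- arrays. Every C5aR- value lay above the rest. Over all 34 measured cell cycle genes, 0 rose and 0 fell against the midpoint, where 0.0118% of all clusters rose and 0% fell. The median difference was -0.14. It was -0.28 without C5aR- array 1, -0.06 without C5aR- array 2 and -0.23 without LysoMac array 2. It was -0.08 without LysoMac array 3 and -0.29 with the linear midpoint.

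Among the remaining lists no member passed. Monocyte genes had the largest median, 0.57 over 21 genes, and the medians on the 3 C5aR+ arrays were 0.14, 0.24 and 0.91, so that array 3 stood well above the others. The monocyte median was 0.22 without C5aR+ array 3, 0.37 without LysoMac array 2 and 0.29 with the linear midpoint. Tissue macrophage genes had a median of 0.21, with 27 of 35 differences above 0, against 15970 of 33793 over all clusters. Fcgr1, the high-affinity IgG receptor, was 6.79, 7.25 and 9.78 on the C5aR+ arrays and 5.76, 5.74 and 7.87 on the C5aR- arrays. These ranges overlapped. Although on the tissue macrophage list, Fcgr1 was lowest on the LysoMac arrays, at 4.62, 4.75 and 4.55. Conventional dendritic cell genes had a median of -0.13, which was -0.03 without C5aR+ array 3 and -0.21 without C5aR+ array 1, and complement genes had a median of 0.14. Lgmn, a lysosomal protease, was 9.30, 9.98 and 11.31 on the C5aR+ arrays, 8.93, 9.57 and 10.31 on the C5aR- arrays and 5.50 to 5.76 on the LysoMac arrays, with a difference of 2.57 ± 0.42 (limma adjusted p = 0.472).

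**Figure D4:**
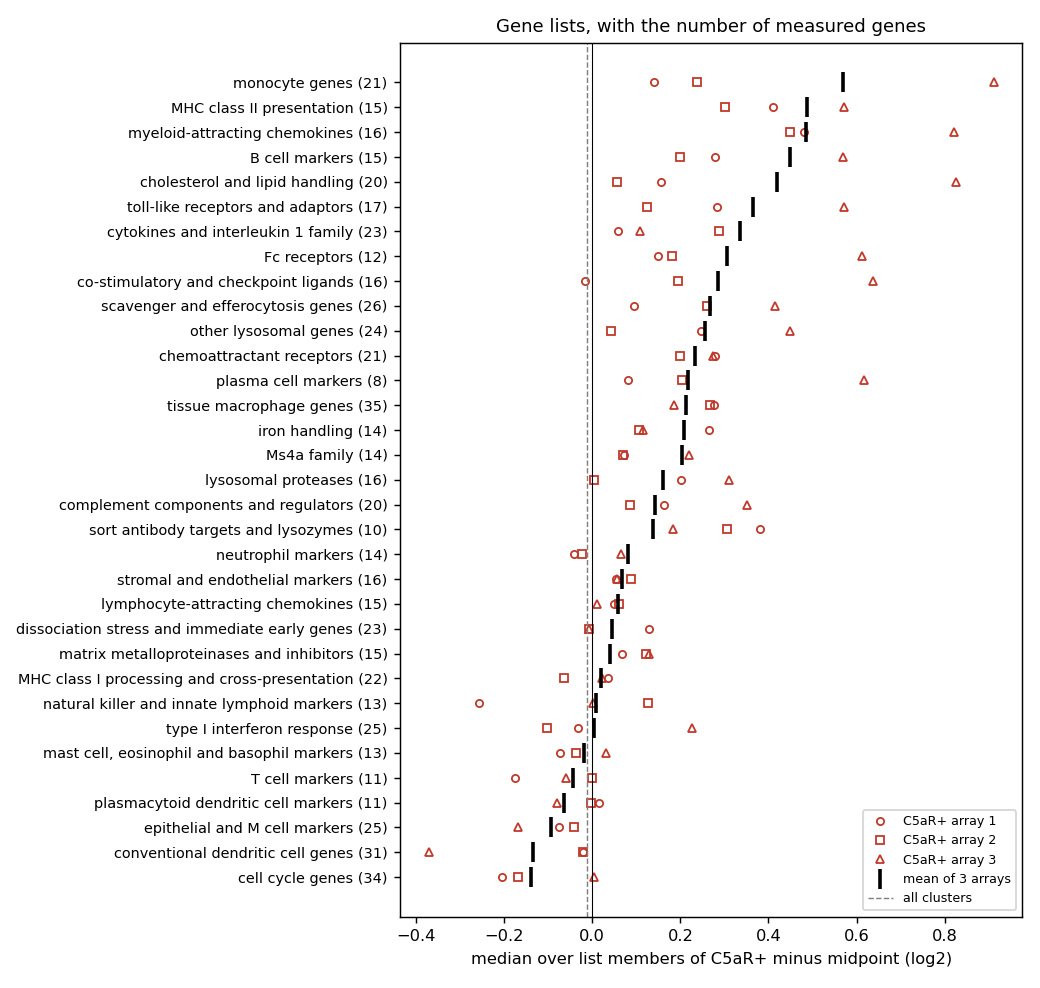
Median log2 difference of C5aR+ LysoDC from the midpoint for each of 33 gene lists, as open symbols for the 3 C5aR+ arrays and a bar for the median computed from the mean of the 3 arrays, with the number of measured genes in brackets. Monocyte genes (0.57), MHC class II genes (0.49) and myeloid-attracting chemokines (0.49) lie highest, and C5aR+ array 3 lies apart from the other 2 for several lists.

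Most lists of markers of other cell types had medians near that of all clusters (-0.01). The median was 0.22 for plasma cell markers. It lay between -0.09 and 0.08 for T cell, natural killer, epithelial, neutrophil, stromal, plasmacytoid dendritic cell and mast cell markers. In sorted bulk samples, fewer cells of a type and less RNA per cell cannot be told apart. The 15 measured B cell markers had a median difference of 0.45 with 0 calls, where 0.0118% of all clusters rose and 0% fell. On C5aR+ arrays 1, 2 and 3 the B cell median was 0.28, 0.20 and 0.57, so array 3 was the highest. Their levels averaged 5.11 to 5.74 on the C5aR+ arrays, 4.55 to 4.71 on the LysoMac arrays and 5.20 to 5.38 on the C5aR- arrays. Pou2af1, named above, and Pax5, at 0.45 ± 0.13, are on that list. The 25 measured epithelial and M cell markers had a median difference of -0.09. Of these, 7 differences were above 0, against 15970 of 33793 over all clusters. Their mean level was 3.98 to 4.08 on the C5aR+ arrays, 3.83 to 4.12 on the LysoMac arrays and 4.40 to 4.54 on the C5aR- arrays. The genes of this list given next lay far below its median. Gp2, an uptake receptor of M cells, was 3.62, 4.68 and 4.10 on the C5aR+ arrays and 6.93, 8.01 and 7.31 on the C5aR- arrays, at -1.35 ± 0.28 from the midpoint (limma adjusted p = 0.843). Pglyrp1 and Cdh1 were -1.33 ± 0.24 and -1.24 ± 0.24 from it, and a second, dim cluster of Cdh1 was at -0.04. The part of other cell types in these differences was not tested.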

How the data were processed

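The authors deposited log2 expression values, which RMA in Affymetrix Power Tools produced per the submitters' processing notes (versions not given in the sources used here). The values were used as deposited. Of 33793 clusters, 23521 carry 1 gene symbol in the platform annotation, 1814 several and 8458 none; only the first kind is named, and the brightest cluster stands for a gene.

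Samples were grouped by title. limma 3.58.1 in R 4.3.3 fitted a mean for each population to all 9 arrays together, leaving 6 residual degrees of freedom, with two-sided moderated tests and Benjamini-Hochberg adjustment over all clusters. A second contrast compared C5aR- LysoDC with LysoMac. It is uncorrelated with the first only if variances are equal, and the mean variance was 0.179 in LysoMac against 0.0854 in C5aR- LysoDC. Choosing clusters by the second contrast may therefore affect the C5aR+ positions given for them, which was not tested. The number of arrays limits the precision.

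Members and the 33 gene lists (548 of 591 genes matched) were chosen with earlier results of these data known. Named genes were Ccl8, sort targets and lysozymes, up to 10 genes a direction that passed, filled by the smallest unadjusted p among genes whose C5aR+ arrays lay outside the other 6, up to 4 passing or otherwise 2 members per list, and 5 genes a direction of the second contrast; other genes named were chosen after their values were seen. The alternatives tried were quantile and cyclic loess normalization, median centring, a replicate block, a filter on dim clusters, clusters with 1 symbol, an intensity trend, robust variances, array and group weights, the mean of a gene's clusters, a linear midpoint, a 2-fold minimum and leaving out each array. Promoter motifs were searched on both strands of RefSeq sequences; the X box was first searched with 11 letters, which are reported by name, and then with its first 9 letters.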

Additional observations from a re-analysis of the deposited data

How the results depend on the processing

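The count of clusters above the midpoint (4) was 0 with a replicate block, 1 with quantile normalization, 1 with cyclic loess and 1 with the linear midpoint, which also gave 1 lower; array weights gave 2 lower. Called clusters with every C5aR+ array beyond all others (1) numbered 3 with array weights and 0 with the block. Called members of the gene lists numbered 0 with the block, 1 with quantile normalization and 1 with cyclic loess. The labels do not say what a shared replicate number marks. Deviations of same-numbered arrays correlated at r = 0.16, 0.26 and 0.41 between LysoMac and C5aR+ LysoDC, each over 0.1, at 0.17, -0.11 and 0.13 between LysoMac and C5aR- LysoDC, and at 0.23, -0.03 and 0.20 between C5aR+ and C5aR- LysoDC. Not every correlation was over 0.1, so the block was not used, yet with it all 4 calls were lost. C5aR- LysoDC against LysoMac gave 219 lower clusters with the block, 274 with quantile normalization and 291 with cyclic loess, 2991 higher and 3691 lower with array weights and 193 higher and 61 lower with group weights; the median toward C5aR- LysoDC was 0.11 with array weights. The causes of these shifts were not tested. Leaving out each array gave 0 to 6 higher and 0 to 0 lower clusters, 0 to 3 called clusters beyond all other arrays, 0 to 5 called list members, 108 to 822 higher and 22 to 434 lower in the second contrast, and a median of -0.33 to 0.21. In sign only, medians of the MHC class II, myeloid chemokine, macrophage and monocyte lists stayed above 0 in all 22 alternatives. Those of the dendritic cell, cell cycle and epithelial lists stayed below 0. Several alternatives returned the main medians unchanged, so their signs add nothing. These were the block, clusters with 1 symbol, the intensity trend, robust variances, group weights, the mean of a gene's clusters and the 2-fold minimum. With 3 arrays a population, genes near background have at most a bound.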
